A study of Mus musculus with 8 samples.

Results

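The regions described here are all ATAC-seq peaks on mouse chromosomes 3 and 7 in a pair of peak lists, 1 from the kidney cell line mK4 and 1 from the kidney cell line mK3. They number 4824 in mK4 and 2205 in mK3, together 7029 of the 57272 peaks listed for both lines. On chromosome 3 the mK4 list held 2753 peaks and the mK3 list 1383, and on chromosome 7 the mK4 list held 2071 and the mK3 list 822. Peaks were counted by summit in bins of 10 Mb from position 0 of each chromosome, and the text describes where along the chromosomes the ratio of mK4 to mK3 peaks changed. The members were chosen by chromosome because earlier values of these same lists were known, so the counts and their ratios are given as descriptions without a test.

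Both lines derive from metanephric mesenchyme, from which kidney nephrons form in the embryo. The labels give mK4 as cells differentiated towards epithelium and mK3 as cells that were not induced. Both were labelled wild type, received no treatment and were grown in the same DMEM medium with fetal bovine serum, and each group is a single cell line. Each line had 1 ATAC-seq library and 3 RNA-seq libraries.

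In ATAC-seq a transposase cuts and tags DNA that is not wrapped in nucleosomes, so peaks lie mainly at promoters, enhancers and insulators. Promoters of widely used genes are open in most cell types, whereas enhancers, in gene bodies and between genes, differ more from one cell type to another.

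The sequences below show what the peaks at gene starts look like on these chromosomes, taking per chromosome and class the protein-coding gene with the highest −log10 q among peaks whose summit lay in the 200 bases upstream of the start. Peaks with a summit farther upstream or beyond the start, some of them stronger, were not considered for printing. Each is the 200 bases upstream of the annotated start from RefSeq, build GRCm38.p6 (mm10), on the plus strand. Capitals mark matches on either strand to GGGCGG (the GC box bound by Sp1), CCAAT (the box bound by NF-Y), TGANTCA (AP-1) or GGAATG (TEAD).
Nes, chromosome 3, mK4 peak only, chr3:87970893-87971092: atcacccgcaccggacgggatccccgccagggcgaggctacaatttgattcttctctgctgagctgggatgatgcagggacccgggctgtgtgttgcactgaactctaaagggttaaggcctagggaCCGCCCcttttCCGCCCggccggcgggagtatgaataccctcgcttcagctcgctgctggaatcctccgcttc
Kyat3, chromosome 3, peak in both lists, chr3:142700848-142701047: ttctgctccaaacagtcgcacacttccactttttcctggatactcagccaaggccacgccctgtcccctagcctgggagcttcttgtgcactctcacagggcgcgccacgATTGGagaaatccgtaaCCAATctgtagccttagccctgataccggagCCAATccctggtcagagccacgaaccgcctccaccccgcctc
Slc39a8, chromosome 3, mK3 peak only, chr3:135825457-135825656: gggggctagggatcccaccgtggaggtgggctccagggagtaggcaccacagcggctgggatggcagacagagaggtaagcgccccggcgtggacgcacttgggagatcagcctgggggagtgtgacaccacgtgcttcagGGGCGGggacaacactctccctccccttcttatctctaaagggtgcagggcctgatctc
Phkg2, chromosome 7, mK4 peak only, chr7:127573148-127573347: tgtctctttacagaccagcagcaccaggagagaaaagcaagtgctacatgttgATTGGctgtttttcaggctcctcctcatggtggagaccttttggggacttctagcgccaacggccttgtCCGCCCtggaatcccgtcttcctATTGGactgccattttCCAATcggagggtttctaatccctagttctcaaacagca
Nucb2, chromosome 7, peak in both lists, chr7:116504169-116504368: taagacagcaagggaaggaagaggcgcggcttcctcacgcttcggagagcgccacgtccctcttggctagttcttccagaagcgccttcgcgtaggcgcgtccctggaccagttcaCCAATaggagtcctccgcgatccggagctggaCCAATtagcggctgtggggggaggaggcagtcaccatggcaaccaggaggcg
Lrrc56, chromosome 7, mK3 peak only, chr7:141194943-141195142: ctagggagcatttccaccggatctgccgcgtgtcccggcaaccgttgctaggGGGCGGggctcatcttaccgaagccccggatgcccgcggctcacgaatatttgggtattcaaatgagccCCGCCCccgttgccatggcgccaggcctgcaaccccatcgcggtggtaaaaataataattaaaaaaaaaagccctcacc

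The Nes window, from the gene of the intermediate filament protein nestin, had 61% G and C, 14 CG pairs and 2 GC boxes, and its mK4 peak had a fold enrichment of 6.68 and a −log10 q of 41.1, values of the authors' peak caller. Nes had 21.4, 20.6 and 20.8 CPM (counts scaled to a common library total) in the mK4 libraries and 17.2, 9.45 and 13 CPM in the mK3 libraries, and it was not called (edgeR adjusted p = 0.0555). A peak of the mK3 list lay within 1 kb of the same start but outside this promoter. The Slc39a8 window, from the gene of a zinc and manganese transporter, held 8 CG pairs and 1 GC box, and its mK3 peak had a fold enrichment of 6.03. Slc39a8 was listed at 0, 0 and 0.333 CPM in mK4 and at 13, 11.4 and 19.8 CPM in mK3, so its RNA was lower in mK4 (adjusted p = 0.0125), and its promoter peak was in the mK3 list alone. For Lrrc56 the order was the other way round: the peak was listed only in mK3, and the RNA was higher in mK4 at 3.69, 3.30 and 1.33 CPM, against 0.501, 0.657 and 0.548 CPM in mK3 (adjusted p = 0.00774).

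The peak classes were read over the whole promoter entry of RefSeq, which also takes in the first bases of the gene. Of 4427 promoters on chromosomes 3 and 7, 385 were overlapped by an mK4 peak only, 955 by peaks of both lists and 42 by an mK3 peak only. The mK4-only promoters had a median of 12 CG pairs in the 200 bases and a GC box in 47.0%, those with peaks of both lists had 15 and 64.4%, and those with none had 2 and 16.4%. A CCAAT box was in 24.7% of the mK4-only promoters and in 40.2% of those of both lists. Over all 32851 promoters in the table a GC box was found in 31.0% and a CCAAT box in 29.3%, and the AP-1 and TEAD motifs in 5.48% and 10.1%. The same classes over the whole table had close values, with a GC box in 49.1% of mK4-only promoters and in 64.0% of those of both lists.

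The RNA libraries held 133899125 to 146187601 gene counts, and ATAC-seq read totals were not analysed here. Markers were read in every RNA library as a check of the labels. Markers of induced mesenchyme summed to 1670 to 1760 CPM in mK4 and 10.0 to 11.3 CPM in mK3, mostly Cdh6 in mK4. Of 5 tested, 4 were higher in mK4 and Jag1 was lower, at 4.97, 4.14 and 4.28 CPM against 10.3, 9.57 and 8.77 CPM in mK3. Of the 6 epithelial markers, Cgn was called higher in mK4, and Cdh1, Epcam, Krt8 and Krt18 were at most 0.725 CPM in any library. Ocln had 2.53, 4.03 and 1.59 CPM in mK4 and 0, 0 and 0.217 CPM in mK3 and was not called. The list summed to 58.0 to 70.0 CPM in mK4 and 13.4 to 16.3 CPM in mK3. Of 8 tested progenitor markers, Eya1, Pax2 and Sall1 were higher in mK4 and Osr1 and Six2 lower. Six2 was at 0 in mK4 and at most 0.491 CPM in mK3, while Pax2, Sall1 and Wt1 were at 0 in mK3. Hoxa11 was uneven within both lines, with 4.64, 5.25 and 49.1 CPM in mK4 and 53.2, 449 and 51.9 CPM in mK3, and was not called. Stromal markers summed to 58.3 to 63.4 CPM in mK4 and 2950 to 3550 CPM in mK3, and leukocyte markers to at most 0.526 CPM in either line. Of the 6 stromal markers 5 were lower in mK4, but Foxd1 was higher, at 5.32, 5.03 and 4.18 CPM against 2.59, 2.7 and 2.41 CPM in mK3. Among 4 tested endothelial markers, Cdh5 was higher in mK4, Kdr and Tek were lower and Pecam1 was not called. Cdh1, Epcam, Krt8 and Krt18 were thus near 0 in the line labelled as differentiated towards epithelium, while Cgn and Ocln were detected in it. The lines are called by their names here.

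Over all chromosomes the lists held 34710 mK4 and 22477 mK3 peaks, a ratio of 1.54 (95% interval 1.52 to 1.57). Whether both lists were called with the same settings and at the same read depth is not known from the sources used, and every ratio of mK4 to mK3 peaks carries that limit. Chromosome 7 had the highest ratio of the 20 chromosomes other than Y, 2.52 (2.32 to 2.74), and chromosome 3 the next, 1.99 (1.87 to 2.13). Chromosome 6 followed with 1.93, and the chromosomes other than 3 and 7 had 1.47 together (1.45 to 1.5). The intervals are exact conditional binomial intervals of a ratio of 2 counts. They cover counting error only, since there was 1 ATAC-seq library per line and neighbouring peaks are not independent.

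Along chromosome 3 the ratio changed in a step (plot of peaks by bin and plot of the ratio by bin). The first 8 bins, from 0 to 80 Mb, held 603 mK4 peaks and 467 mK3 peaks, a ratio of 1.29 (1.14 to 1.46). Their separate ratios ran from 1.08 in the bin from 10 to 20 Mb to 1.38 in the bin from 0 to 10 Mb, and none of the 8 was above the ratio of all chromosomes. The last 8 bins, from 80 to 160 Mb, held 2150 mK4 peaks and 916 mK3 peaks, a ratio of 2.35 (2.17 to 2.54). Their separate ratios ran from 1.81 to 3.43, and all 8 were above the ratio of all chromosomes. Of the 264 bins of the genome, 118 (44.7%) were.

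The bins beside the step were those from 70 to 80 Mb, with 37 mK4 and 33 mK3 peaks, and from 80 to 90 Mb, with 248 mK4 and 137 mK3 peaks. The ratio went on to 2.39 in the bin from 90 to 100 Mb, with 370 mK4 and 155 mK3 peaks. It was highest, 3.43 (2.42 to 4.96), in the bin from 110 to 120 Mb, with 144 mK4 and 42 mK3 peaks, which ranked 4 of 264 bins. The peaks per bin were more numerous beyond 80 Mb in both lists, but by unequal amounts: mK4 bins held 144 to 375 peaks there, against 37 to 139 before it, and mK3 bins held 42 to 176, against 33 to 102.

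**Figure D1:**
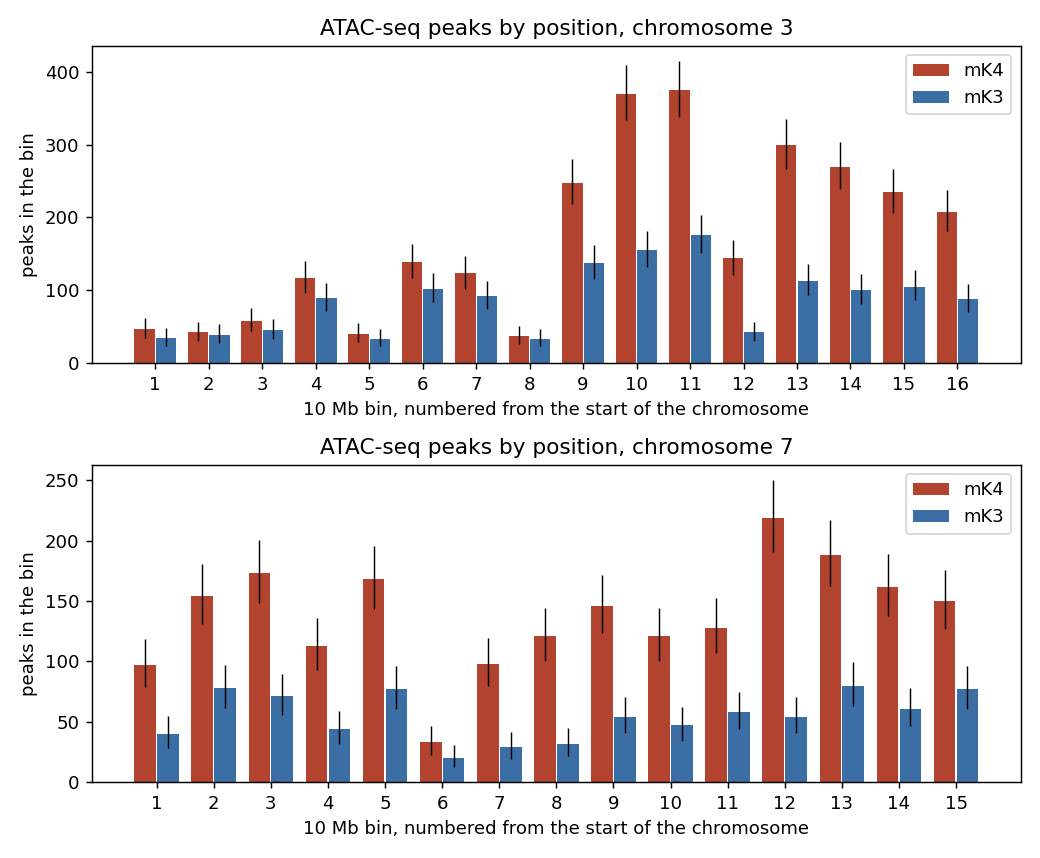
ATAC-seq peaks (y axis, number) in 10 Mb bins numbered from the start of chromosome 3 (top) and chromosome 7 (bottom), with mK4 in red left of mK3 in blue and 95% Poisson intervals as lines. In the first 8 bins of chromosome 3 the bars of the lines are close, from bin 9 on the mK4 bars are clearly higher, and on chromosome 7 the mK4 bar is the higher in all 15 bins.

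At finer scale the change lay a little beyond 80 Mb. When the excess of mK4 peaks over the chromosome's own ratio was added up in 1 Mb windows, it was lowest at 86 Mb. The 10 Mb before that point held 97 mK4 and 83 mK3 peaks, and the 10 Mb after it held 391 mK4 and 176 mK3 peaks. In windows of 2 Mb, mK4 and mK3 had 15 and 17 peaks from 80 to 82 Mb, 13 and 15 from 82 to 84 Mb, 40 and 25 from 84 to 86 Mb, 59 and 23 from 86 to 88 Mb, and 121 and 57 from 88 to 90 Mb. The bins of 5 Mb, and bins of 10 Mb shifted by 5 Mb, both put the step at 85 Mb, with a ratio of 1.27 before and 2.42 beyond it.

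The position of the step depended on which peaks were counted. With peaks of −log10 q of at least 5 only, the largest difference lay at 30 Mb (0.69 on the log2 scale), although that at 80 Mb was almost as large (0.68, from ratios of 2.14 beyond and 1.34 before). With peaks within 1 kb of a gene start only, the ratio was 1.28 beyond 80 Mb and 1.08 before it, and the largest difference again lay at 30 Mb. With peaks farther from every start the step was at 80 Mb, with 2.94 beyond and 1.36 before. Over all peaks the difference at 80 Mb was 0.86 on the log2 scale, the fourth largest of the 20 chromosomes after X (1.16), 15 (−1.0) and 12 (−0.87).

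**Figure D2:**
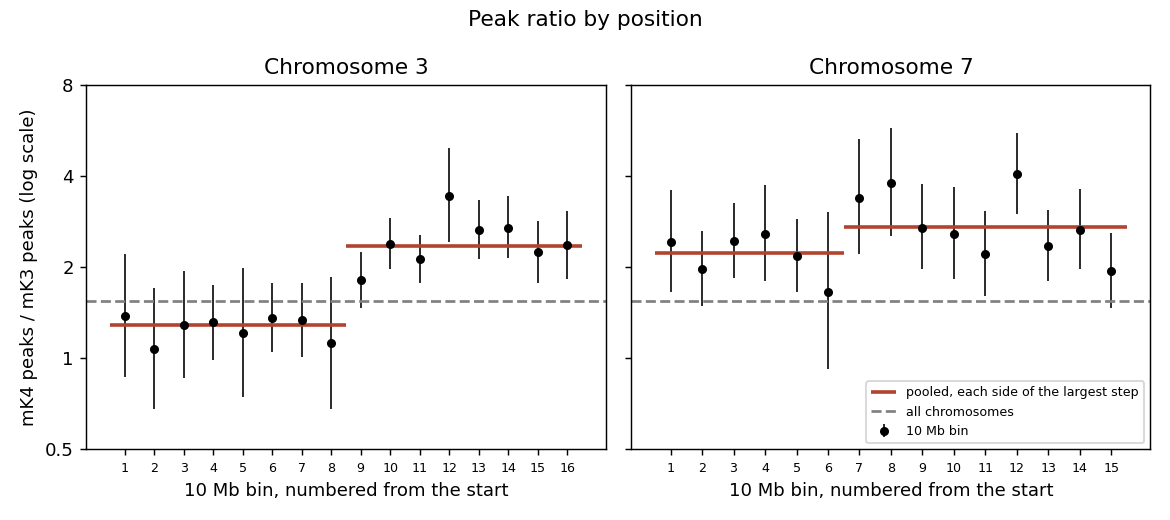
Ratio of mK4 to mK3 peaks (y axis, log scale) in each 10 Mb bin, numbered from the start of the chromosome, with exact 95% intervals, for chromosome 3 (left) and chromosome 7 (right). Red lines give the pooled ratio on each side of the largest step, 1.29 and 2.35 on chromosome 3 and 2.24 and 2.71 on chromosome 7, and the dashed line is the ratio of all chromosomes, 1.54.

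Chromosome 7 had no comparable step. All 15 bins were above the ratio of all chromosomes, from 1.65 (0.92 to 3.03) in the bin from 50 to 60 Mb, which held 33 mK4 and 20 mK3 peaks, to 4.06 (3.00 to 5.57) in the bin from 110 to 120 Mb, which held 219 mK4 and 54 mK3 peaks. That bin ranked 2 of 264 in the genome. The bins from 70 to 80 Mb (121 mK4 and 32 mK3 peaks, ratio 3.78) and from 60 to 70 Mb (98 and 29, ratio 3.38) ranked 3 and 5. The largest difference between sides was at 60 Mb, 2.71 beyond and 2.24 before, which is 0.28 on the log2 scale. It moved to 30, 40 or 45 Mb under other ways of counting and turned round for peaks at gene starts, with 1.61 beyond 40 Mb and 1.90 before it, so no position of a change is given for this chromosome.

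Peaks were also divided by whether the other list held them, and called shared where they overlapped a peak of the other list by at least 1 bp. Beyond 80 Mb of chromosome 3 there were 1407 mK4-only and 169 mK3-only peaks, and before it 272 mK4-only and 141 mK3-only peaks. Chromosome 7 had 1327 mK4-only and 85 mK3-only peaks, and the other chromosomes 15391 and 5912. Of the mK3 peaks, 89.7% on chromosome 7 (87.4% to 91.7%), 81.6% beyond 80 Mb of chromosome 3 (78.9% to 84.0%) and 69.8% before it (65.4% to 73.9%) were shared, against 70.8% on the other chromosomes. Of the mK4 peaks, 35.9% were shared on chromosome 7, 34.6% beyond 80 Mb of chromosome 3 and 54.9% before it, against 48.5% elsewhere. The stretch of chromosome 3 before 80 Mb had shares close to those of the other chromosomes in mK3 and above them in mK4.

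The difference was larger away from gene starts than at them (plot of the ratio by place). Within 1 kb of an annotated start the ratio was 1.28 beyond 80 Mb of chromosome 3, 1.08 before it, 1.70 on chromosome 7 and 1.15 on the other chromosomes. In gene bodies it was 2.65 beyond 80 Mb, 1.42 before it, 3.60 on chromosome 7 and 1.73 elsewhere. Between genes it was 3.30 beyond 80 Mb, 1.29 before it, 3.36 on chromosome 7 and 1.61 elsewhere. Chromosome 7 was the richer in start peaks: 36.9% of its mK4 peaks and 54.7% of its mK3 peaks lay within 1 kb of a start, against 28.4% and 36.6% on the other chromosomes.

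**Figure D3:**
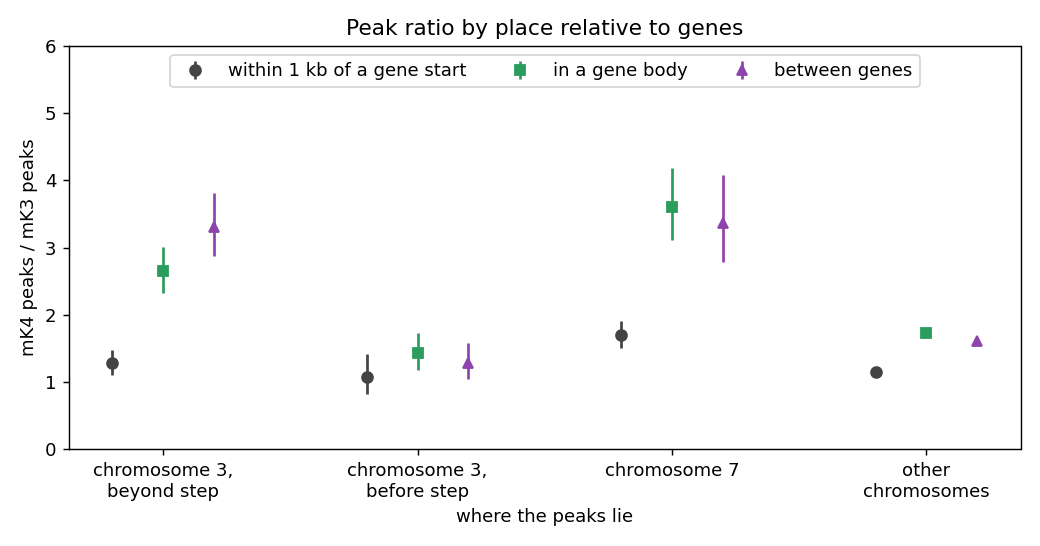
Ratio of mK4 to mK3 peaks (y axis) with exact 95% intervals for peaks within 1 kb of a gene start, in a gene body and between genes, for chromosome 3 beyond and before 80 Mb, chromosome 7 and the other chromosomes. At gene starts the 4 ratios lie between 1.08 and 1.70, and away from starts chromosome 7 and chromosome 3 beyond 80 Mb reach 2.65 to 3.60.

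The fold enrichment of mK4 peaks of like q also differed between the stretches of chromosome 3. Fold enrichment is the signal at a peak over the background that the caller assigns to it, and it was compared among peaks of like q. Among peaks with a −log10 q from 5 to below 10, the median fold enrichment in mK4 was 3.43 (quartiles 3.12 to 3.72, 493 peaks) beyond 80 Mb and 4.15 (3.83 to 4.54, 188 peaks) before it. In mK3 it was 3.81 (295 peaks beyond and 149 before) on both sides. By bin, the mK4 medians were 3.26 to 3.64 in the 8 bins beyond 80 Mb and 3.97 to 4.36 in the 8 before it, so the bins did not overlap, whereas the mK3 medians were 3.70 to 3.81 beyond and 3.69 to 4.39 before. On chromosome 7 the medians were 4.0 in mK4 and 3.95 in mK3, and on the other chromosomes 4.0 and 3.74. The lower fold at like q was thus seen along the stretch of chromosome 3 beyond 80 Mb and not along chromosome 7. Of the 20 chromosomes, chromosome 3 had the lowest mK4 median (3.61), followed by 19 (3.69) and 15 (3.75).

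RNA was not used to choose the peaks, and it was read along the same positions (plot of RNA by bin). The test was edgeR's quasi-likelihood test of mK4 against mK3 over 20405 genes, of which 20.8% were called higher and 19.5% lower in mK4 at a Benjamini-Hochberg adjusted p under 0.05, 40.3% in either direction. Whether the 3 libraries of each line are separate cultures is not stated in the labels, and p-values here rest on library-to-library spread alone, possibly technical. In bulk RNA, fewer cells with a transcript and less RNA per cell cannot be told apart.

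Beyond 80 Mb of chromosome 3, RNA was higher in mK4 for 366 of 617 tested genes (59.3%) and lower for 53 (8.59%). Before 80 Mb, 42 of 255 (16.5%) were higher and 70 (27.5%) lower. The median log2 fold change was 0.98 beyond 80 Mb and −0.15 before it, against 0.02 over all genes tested. Setting genes at 0 in a line to the bound that 3 counts per library give left these medians as they are. Such genes lie far to their side of the median with or without the bound, so this setting could hardly have moved it. By bin, the medians were 0.57 to 1.12 in the 8 bins beyond 80 Mb and −0.75 to 0.52 in the 8 before it, and they did not overlap. In a single library, the median deviation of the genes beyond 80 Mb from their mean over the 6 libraries was 0.43, 0.43 and 0.40 on the log2 scale in mK4 and −0.43, −0.37 and −0.41 in mK3.

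**Figure D4:**
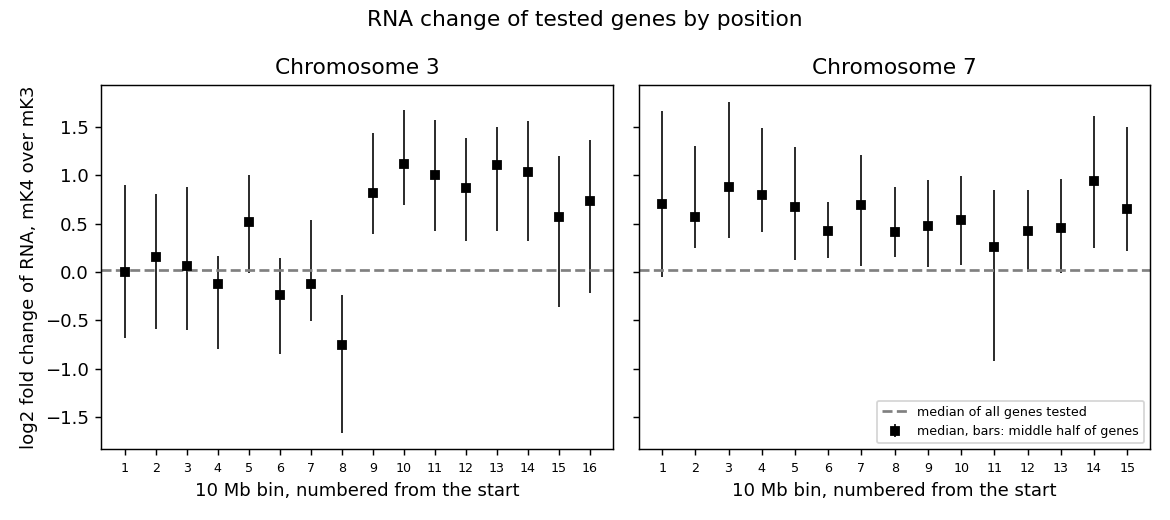
Median log2 fold change of RNA, mK4 over mK3 (y axis), of the tested genes in each 10 Mb bin of chromosome 3 (left) and chromosome 7 (right), with lines from the lower to the upper quartile of the genes and the median of all genes tested dashed. On chromosome 3 the medians are −0.75 to 0.52 in bins 1 to 8 and 0.57 to 1.12 in bins 9 to 16, and on chromosome 7 they are 0.26 to 0.95 in all 15 bins.

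When the tested genes of chromosome 3 were ordered by position and divided where the medians of the sides differed most, with at least 50 genes on a side, the border fell between Fbxw7, centred at 84.9 Mb, and Gatb, centred at 85.6 Mb. The median log2 fold change was 1.0 in the 599 genes beyond that border and −0.16 in the 273 before it. The peaks had given 86 Mb.

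Chromosome 7 was shifted as a whole. RNA was higher in mK4 for 497 of 1214 tested genes (40.9%) and lower for 86 (7.08%), and the median log2 fold change was 0.60. The bin medians ran from 0.26 in the bin from 100 to 110 Mb to 0.95 in the bin from 130 to 140 Mb, all above the median of all genes. Chromosome 3 and chromosome 7 had the highest median fold changes of the 20 chromosomes, 0.69 and 0.60. Chromosome 8 was next with 0.21, and the genes outside chromosomes 3 and 7 had −0.06.

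The share of a library's gene counts from each stretch is another measure, without a test per gene, in which genes with many counts weigh most (plot of count shares). Genes beyond 80 Mb of chromosome 3 took 6.01%, 6.06% and 5.94% of the counts in mK4 and 3.05%, 3.10% and 3.03% in mK3. Genes before 80 Mb took 1.31%, 1.48% and 1.33% in mK4 and 1.6%, 1.49% and 1.53% in mK3. Chromosome 7 took 3.88%, 3.93% and 4.03% in mK4 and 2.91%, 2.7% and 2.71% in mK3. For each of the 3 stretches the libraries of the lines did not overlap, and the exact two-sided permutation test gave p = 0.1, the smallest that 3 libraries against 3 allow. Without the 10 genes of highest count in each, the means were 4.55% ± 0.0293 in mK4 and 2.30% ± 0.0367 in mK3 beyond 80 Mb of chromosome 3, and 3.31% ± 0.0639 in mK4 and 2.22% ± 0.0964 in mK3 on chromosome 7 (SD, n = 3). Before 80 Mb of chromosome 3 they were then 0.90% ± 0.0162 in mK4 and 0.96% ± 0.0375 in mK3. There the highest mK4 library (0.9195%) all but met the lowest mK3 library (0.9196%).

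**Figure D5:**
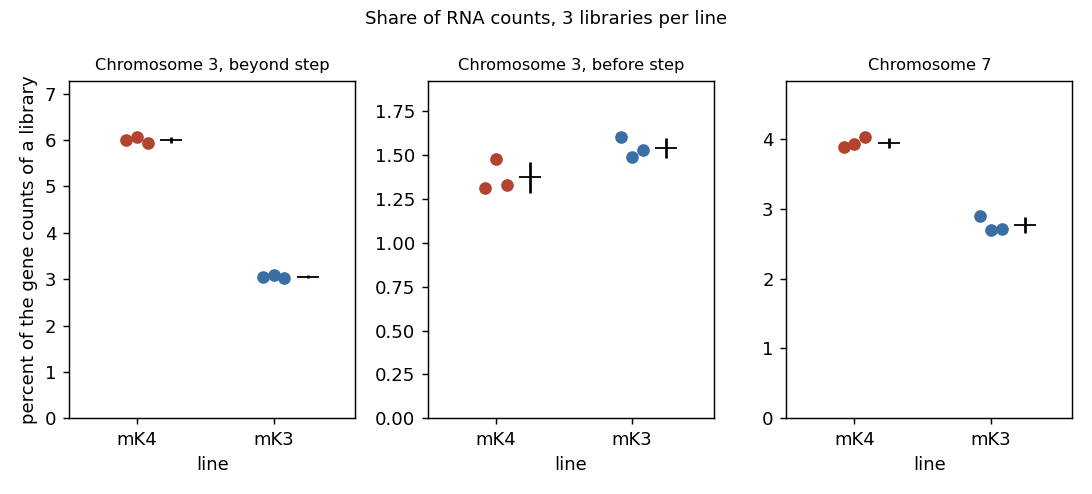
Share of the gene counts of each RNA library (y axis, percent, from 0) from chromosome 3 beyond 80 Mb (left), chromosome 3 before 80 Mb (middle) and chromosome 7 (right), mK4 left of mK3, with points for 3 libraries per line and mean ± SD beside them. Beyond 80 Mb the mK4 libraries lie at 5.94% to 6.06% and the mK3 libraries at 3.03% to 3.10%.

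Across bins with at least 20 tested genes and 20 peaks, the log2 peak ratio and the median log2 fold change of RNA had a Pearson r of 0.82 over 15 bins of chromosome 3, −0.18 over 14 bins of chromosome 7 and 0.69 over 242 bins of all chromosomes. These are descriptions: all bins share the same libraries, and neighbouring bins of chromosome 3 share the step. Along chromosome 7 the bins with the most surplus peaks were not those with the highest RNA medians. The bin from 110 to 120 Mb, with the highest peak ratio, had a median of 0.42.

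Genes around the border on chromosome 3 were read one by one, and those named were picked after their values were seen. From 79 to 85 Mb lie several genes with lower RNA in mK4. Rapgef2, for an exchange factor of the GTPase Rap1, had 75.7, 82.1 and 79.3 CPM in mK4 and 170, 157 and 152 CPM in mK3, a log2 fold change of −1.02 ± 0.07 (SE, adjusted p = 0.000159). Pdgfc, for a ligand of the platelet-derived growth factor receptor, had 78.2, 92.1 and 86.9 CPM in mK4 and 284, 283 and 261 CPM in mK3 (−1.69 ± 0.08). Dchs2, for a protocadherin, had 3.37, 5.26 and 3.10 CPM in mK4 and 101, 110 and 123 CPM in mK3. Sfrp2, for a secreted Wnt modulator that is expressed in the developing kidney, had 0.315, 0.105 and 0 CPM in mK4 and 196, 194 and 197 CPM in mK3 (adjusted p = 0.000324). By windows of 2 Mb, 9 of 14 tested genes were lower and none higher in mK4 from 78 to 80 Mb, 2 of 3 were lower from 80 to 82 Mb, and 5 of 8 were lower and 2 higher from 82 to 84 Mb. The 10 Mb bins count Pdgfc, Dchs2 and Sfrp2 beyond 80 Mb, although they lie before the border in RNA.

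Next to the border, Fbxw7, for the substrate adaptor of a ubiquitin ligase, had 21.3, 20 and 15.8 CPM in mK4 and 12.4, 20.9 and 17.7 CPM in mK3, and the libraries overlapped (adjusted p = 0.616). In the window from 84 to 86 Mb, which holds the border, 1 of 11 tested genes was higher and 2 lower, with a median log2 fold change of 0.33. From 86 to 88 Mb, mK4 was higher in 12 and lower in 0 of 20 tested genes, and from 88 to 90 Mb it was higher in 50 and lower in 1 of 72. Sh3d19 had 238, 211 and 247 CPM in mK4 and 74.0, 88.7 and 91.6 CPM in mK3 (log2 fold change 1.45 ± 0.11). Lrba, for an anchor protein of vesicle traffic, had 253, 253 and 218 CPM in mK4 and 94.9, 93.0 and 80.1 CPM in mK3 (1.43 ± 0.10). Dclk2, for a microtubule-associated kinase, had 185, 165 and 234 CPM in mK4 and 61.5, 54.4 and 60.7 CPM in mK3 (1.72 ± 0.14). In these 3 genes no mK4 library was as low as any mK3 library. In the gene or within 10 kb of it, Sh3d19 had 4 mK4-only and 1 mK3-only peaks, Lrba 5 mK4-only peaks and Dclk2 2.

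Further genes beyond the border were picked after their values were seen. Rps3a1, for a ribosomal protein, had 410, 390 and 364 CPM in mK4 and 213, 272 and 240 CPM in mK3 (0.68 ± 0.10). Cct3, for a subunit of the chaperonin TRiC, had 321, 314 and 295 CPM in mK4 and 206, 235 and 208 CPM in mK3 (0.52 ± 0.08). Dap3, for a mitochondrial ribosomal protein, had 247, 255 and 257 CPM in mK4 and 97.8, 120 and 103 CPM in mK3 (1.24 ± 0.09). The window from 88 to 89 Mb held 63 mK4 and 24 mK3 peaks, and of its 26 tested genes 22 were higher and 0 lower in mK4. In the window from 95 to 96 Mb there were 71 mK4 and 37 mK3 peaks, and 26 of 35 tested genes were higher and 1 lower. These windows were picked after their values were seen.

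Genes that stood far from their neighbours were found on both sides of the border. Named genes are, per chromosome, the 6 that rose most and the 6 that fell most among called genes whose libraries do not overlap and whose mean log2 CPM is at least 3. On chromosome 3 the largest increase lay before the border: Zfhx4, for a zinc finger and homeodomain protein, had 82.2, 88.0 and 80.6 CPM in mK4 and 0.0487, 0.106 and 0.113 CPM in mK3 (log2 fold change 9.88 ± 0.28, adjusted p = 9.82e-06), with 3 mK4-only peaks. Celsr2, for a cadherin of planar cell polarity, had 53.8, 51.2 and 55.7 CPM in mK4 and 0.452, 0.393 and 0.282 CPM in mK3, with 2 mK4-only peaks and 3 shared ones. Ugt8a, for an enzyme of galactolipid synthesis, and Selenbp1, for a selenium-binding protein, were 59.4-fold and 41.1-fold higher. Plch1, for a phospholipase C, and Veph1 were 17.2-fold and 12.5-fold higher, and Veph1 lost its call when mK3 replicate 3 or mK4 replicate 2 was left out (adjusted p = 0.0192 with all libraries, 0.000302 to 0.0655 over the alternatives).

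The largest decreases on chromosome 3 were also spread over its length. Arsj, for an arylsulfatase, was at 0 in the 3 mK4 libraries and had 350, 353 and 359 CPM in mK3, which is at least 16100-fold lower against a floor of 3 counts per library. Vav3, for a guanine nucleotide exchange factor, was at 0 in mK4 and had 122, 139 and 113 CPM in mK3, at least 5670-fold lower. At the starts of both genes a peak was listed in mK3 only, although Arsj and Vav3 also had 2 and 5 mK4-only peaks within them or nearby. Ptx3, for the soluble pattern receptor pentraxin 3, had 0.322, 0.145 and 0 CPM in mK4 and 155, 151 and 168 CPM in mK3, with 2 mK3-only peaks and no mK4 peak. Gbp2b and Unc5c, for a guanylate-binding protein and a netrin receptor, were 384-fold and 170-fold lower.

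On chromosome 7 the 6 genes with the largest fitted log2 fold change were all at 0 in the mK3 libraries. Fitted values of such genes depend on the prior count, so their order is not a result, and the imprinted gene Peg3, given with the other imprinted genes, had counts in 1 mK3 library. Chst15, for a chondroitin sulfotransferase, had 89.4, 116 and 124 CPM in mK4, which is higher by at least 4550-fold, with 5 mK4-only peaks and no mK3 peak. Zfp536, for a zinc finger repressor of neuronal differentiation, had 50.1, 63.1 and 68.7 CPM in mK4 and 4 mK4-only peaks, a difference of at least 2510-fold. Usp29 and Zim1 had 49.6, 45.6 and 53.5 CPM and 46.7, 58.1 and 42.6 CPM in mK4 and Lmo1, for a LIM domain regulator, 46.8, 43.5 and 42.5 CPM, and all were at least 1830-fold higher. Igf2, for the fetal growth factor IGF-II, had 37.6, 35.1 and 38.4 CPM in mK4 (adjusted p = 2.92e-05), a level at least 1530-fold higher, and had no listed peak in either line within 10 kb.

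Decreases on chromosome 7 were fewer, and all 6 named ones lay beyond 80 Mb. Pde8a, for a phosphodiesterase of cyclic AMP, was at 0 in mK4 and had 78.4, 60.7 and 69.7 CPM in mK3, at least 3170-fold lower. Mgmt, for the repair enzyme of O6-methylguanine, was at 0 in mK4 and had 33.2, 32.5 and 25.2 CPM in mK3, at least 1380-fold lower, with 2 mK3-only peaks and a start that was open in the mK3 list only. Nox4, for an NADPH oxidase, was at 0 in mK4 and had 21.8, 22.4 and 18.1 CPM in mK3. Ebf3, for a transcription factor, and Adam12, for a disintegrin and metalloprotease, were 45.3-fold and 14.1-fold lower, and Mrgprf was 15.7-fold lower.

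Imprinted genes, which are expressed from the maternal or the paternal copy alone in at least some tissues, lie in several clusters on chromosome 7. Which copy was expressed in these lines was not tested. Of 21 tested members of the list, 13 were higher in mK4 and 1, Peg12, lower, with a median log2 fold change of 0.67, against 40.9% higher and 7.08% lower over the chromosome. The calls of Slc22a18 and Cd81 were each lost in 4 of 10 alternatives, that of Peg12 in 3 and that of Atp10a in 2. The cluster near its start differed most. Peg3, for a zinc finger protein expressed from the paternal copy, had 381, 385 and 366 CPM in mK4 and 0.0278, 0 and 0 CPM in mK3 (adjusted p = 1.41e-05). Together Peg3, Usp29 and Zim1, which neighbour each other, had mK4-only peaks at their starts, 4, 12 and 2 mK4-only peaks in them or within 10 kb, which share peaks where the genes lie close, and no mK3 peak. Snrpn and Snurf, which share transcripts, were at 0 in mK3 and had 8.11, 7.0 and 7.23 CPM and 1.25, 0.519 and 0.400 CPM in mK4, so their separate counts are uncertain. Ube3a, for the ubiquitin ligase of the same cluster, had 46.5, 51.8 and 41.6 CPM in mK4 and 28.2, 29.1 and 26.9 CPM in mK3. Not called were Cdkn1c, Kcnq1, Kcnq1ot1, Mkrn3, Osbpl5, Tspan32 and Tssc4.

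The counts of listed genes that follow are small and stand beside stretches in which 59.3% of all tested genes were higher and 8.59% lower (beyond 80 Mb of chromosome 3), 16.5% and 27.5% (before it) or 40.9% and 7.08% (chromosome 7), so a count near these shares is no result about its list. Genes of kidney development and growth factor signalling were found in both directions. Of the kidney development list, 0 of 4 tested before 80 Mb of chromosome 3 were higher and 2 lower, 2 of 4 beyond it were higher and 1 lower, and 3 of 8 on chromosome 7 were higher and 1 lower. Fat4, for the cadherin through which stroma signals to nephron progenitors, had 22.7, 23.7 and 22.7 CPM in mK4 and 273, 265 and 253 CPM in mK3 (log2 fold change −3.52 ± 0.07). Notch2, for the receptor needed for proximal nephron fates, had 1780, 1780 and 1820 CPM in mK4 and 605, 494 and 557 CPM in mK3 (1.70 ± 0.08), with 8 mK4-only peaks and 4 shared ones. Fgfr2, for a fibroblast growth factor receptor on chromosome 7, had 1600, 1370 and 1720 CPM in mK4 and 191, 128 and 174 CPM in mK3 (3.25 ± 0.18). Calls for Tead1 and Ilk, at log2 fold changes of 0.39 and −0.42, were lost in 6 and 8 of 10 alternatives.

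Ligands and receptors of growth factor pathways were mixed. Of 14 tested members beyond 80 Mb of chromosome 3, 8 were higher and 3 lower, beside 59.3% and 8.59% over the whole stretch, and the call of Efna3 was lost in 8 of 10 alternatives. Efna1 and Efna4, for ephrin ligands, had log2 fold changes of 2.77 ± 0.13 and 3.01 ± 0.15, each with a peak at the start in mK4 only. Csf1 and Pdgfc were lower, at −0.64 and −1.69. Igf1r, for the receptor of insulin-like growth factors on chromosome 7, had 311, 301 and 320 CPM in mK4 and 84.8, 65.6 and 62.9 CPM in mK3 (2.13 ± 0.13), with 6 mK4-only peaks. Of the 11 tested members on chromosome 7, 5 were higher and 1 lower.

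Epithelial and tubule genes were few. On the tubule and ureteric list, 1 of 1 before 80 Mb (Mme), 2 of 2 beyond it and 2 of 4 on chromosome 7 (Fxyd5 and Spint2) were higher, and none was lower. The calls of Fxyd5 and Egf were each lost in 5 of 10 alternatives. Of the junction list, Cgn, for the tight junction protein cingulin, on chromosome 3, and Tjp1, for its partner ZO-1, and Nectin2, both on chromosome 7, were higher, and Rab25 and Pkp3 were not called. The call of Nectin2 was lost in 2 of 10 alternatives. Tjp1 had 629, 474 and 499 CPM in mK4 and 181, 144 and 127 CPM in mK3 (1.82 ± 0.17) and 7 mK4-only peaks with no other. On the podocyte list none of 3 tested genes was called.

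Matrix genes, which were mostly lower in mK4 among the stromal markers, were mixed here. Postn, for the matrix protein periostin, before the border, had 15.2, 13.1 and 14.7 CPM in mK4 and 579, 654 and 617 CPM in mK3 (−5.42 ± 0.10, adjusted p = 4.12e-06), and its only listed peak was shared. Of 7 tested beyond the border, 4 were higher (Thbs3, Col24a1, Itga10 and Adamtsl4) and Col11a1 was lower, with the calls of Itga10, Adamtsl4 and Col11a1 lost in 6, 6 and 7 of 10 alternatives. On chromosome 7, Tgfb1 was higher, Ltbp4 and Adamtsl3 were lower and 2 of 5 were not called, with the call of Adamtsl3 lost in 7 of 10 alternatives. Of the contractile list, Cnn3 and Tpm3 on chromosome 3 were higher and Mrvi1 and Lsp1 on chromosome 7 lower, with the call of Lsp1 lost in 7 of 10 alternatives and that of Mrvi1 under the replicate block.

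A cluster of guanylate-binding proteins, which interferon induces, went against its stretch of chromosome 3. Of 10 tested members of the interferon list beyond 80 Mb, 7 were lower in mK4 (Gbp2, Gbp2b, Gbp3, Gbp5, Gbp7, Ifi44 and Ifi44l) and 2 higher (Adar and Vcam1). Gbp3 had 37.7, 40.2 and 42.5 CPM in mK4 and 137, 137 and 145 CPM in mK3 (−1.80 ± 0.08), and Gbp7 had 31.3, 31.9 and 30.7 CPM in mK4 and 75.3, 72.0 and 75.7 CPM in mK3 (−1.25 ± 0.07). The genes of this cluster are near copies of each other, so reads may have been split between them. Gbp7 was lower although it had 4 mK4-only peaks and 1 shared one. On chromosome 7, Trim30a, Trim30d and Irf7 were lower and Ifitm2 and Irf3 higher among 13 tested.

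The S100 genes, for small calcium-binding proteins, and the cornified envelope genes beside them lie beyond 80 Mb of chromosome 3. Of 13 tested, 6 were higher and 2 lower, and the call of Tchh, among the higher, was lost in 7 of 10 alternatives. S100a6 had 3220, 2920 and 2740 CPM in mK4 and 1430, 1790 and 1830 CPM in mK3 (0.82 ± 0.11), and S100a13 had 13, 15.3 and 9.94 CPM in mK4 and 35.7, 52.1 and 38.3 CPM in mK3 (−1.72 ± 0.22). Of the cell cycle and p53 list, 2 of 3 beyond 80 Mb (Cenpe and Mcl1) and 6 of 12 on chromosome 7 (among them Ccnd1, Mki67 and Plk1) were higher and none lower, and the calls of Blm and Ercc1 were lost in 7 and 5 of 10 alternatives. Ccnd1, for cyclin D1, had 28.6, 26.4 and 27.9 CPM in mK4 and 8.07, 7.80 and 7.25 CPM in mK3 (1.84 ± 0.10), with 2 mK4-only peaks. Of the endothelial and leukocyte list, 3 of 7 beyond 80 Mb were higher and 2 lower, and 3 of 4 on chromosome 7 were higher, of which Spn and Coro1a lost the call in 7 and 4 of 10 alternatives. Vcam1 was at 90.0, 85.3 and 78.6 CPM in mK4 and 40.4, 49.8 and 43.6 CPM in mK3, and S1pr1 at no more than 17.3 CPM in any library.

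Over the 12 lists together, chosen with earlier results known, 28 of 63 tested genes beyond 80 Mb of chromosome 3 were higher and 16 lower, with a median log2 fold change of 0.53, and 34 of 79 on chromosome 7 were higher and 10 lower, with a median of 0.38. Before 80 Mb, 1 of 7 was higher and 3 lower. These counts stand beside 59.3% higher and 8.59% lower over all tested genes beyond 80 Mb, 40.9% and 7.08% on chromosome 7, and 16.5% and 27.5% before 80 Mb, and the difference of the lists from their stretches was not tested.

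Genes were also grouped by which list held a peak within 1 kb of their start. Beyond 80 Mb of chromosome 3, 35 of 46 tested genes with a start peak in mK4 only were higher (76.1%), and so were 214 of 295 with start peaks in both lists (72.5%), while 9 of 11 with a start peak in mK3 only were lower (81.8%) and 41 of 121 with neither were higher (33.9%, median log2 fold change 0.99). Of genes with a start peak in mK3 only, 2 of 6 before 80 Mb were lower and 3 higher, 3 of 9 on chromosome 7 were lower and 2 higher, and 46.4% on the other chromosomes were lower. On chromosome 7, 122 of 213 with a start peak in mK4 only (57.3%), 216 of 464 with both (46.6%) and 79 of 270 with neither (29.3%) were higher. On the other chromosomes 35.8% of genes with a start peak in mK4 only and 19.8% of those with both were higher. The median log2 fold change of genes with start peaks in both lists was 0.96 beyond 80 Mb of chromosome 3, −0.11 before it, 0.50 on chromosome 7 and −0.06 elsewhere. Where both lists held a start peak, the RNA median beyond 80 Mb was thus close to that of all genes there.

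Single peaks are named by the −log10 q that the authors' caller gave them. The strongest mK4-only peak of chromosome 3 by −log10 q (141) was at chr3:123652826-123653537, in the body of Ndst3, 19307 bases from the nearest start, with a fold enrichment of 11.9. On chromosome 7 it was at chr7:79336379-79337074 with a −log10 q of 67.0 and a fold enrichment of 14.2, and the next, in the body of Tjp1 at chr7:65469696-65470174, had 62.4. The strongest mK3-only peak of chromosome 3 had 35.4, in the body of Rsrc1 at chr3:67102278-67102577. That of chromosome 7 had 21.4, in the body of Dchs1 at chr7:105777749-105778371. The annotated starts used here held none for Dchs1, and the nearest start among them was that of Tpp1, 25682 bases away. Both ends of Dchs1 lie nearer to the peak than that. By its mK4 value, the strongest shared peak of chromosome 3 was at the start of Trim45 at chr3:100921915-100922742, with a −log10 q of 285 in mK4 and 118 in mK3, and that of chromosome 7 was near Cnga4 at chr7:105399933-105400601, with 158 in mK4 and 87.7 in mK3. Values of −log10 q grow with read depth, so they are not compared between the lists.

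Genes with many mK4-only peaks ranged in RNA from not called to many-fold higher. These were chosen after their counts were seen, counting peaks in the gene or within 10 kb. Nav2, for a neuronal guidance protein on chromosome 7, had 20 mK4-only peaks, 1 mK3-only peak and 1 shared peak, and its RNA was at 29.5, 27.4 and 30.8 CPM in mK4 and 24.0, 19.6 and 22.8 CPM in mK3 (0.40 ± 0.11, a call lost in 5 of 10 alternatives). Ank2, for the membrane adaptor ankyrin-B on chromosome 3, had 12 mK4-only and 5 shared peaks, and 24.3, 24.8 and 19.8 CPM in mK4 and 23.9, 21.4 and 23.8 CPM in mK3 (−0.01 ± 0.12). Stpg2 had 11 mK4-only peaks and was at 0 in all 6 libraries. Shank2, for a synaptic scaffold protein, had 11 mK4-only peaks and a log2 fold change of 0.02 ± 0.21. Larger differences were found elsewhere: Dlg2, for a synaptic scaffold protein with 12 mK4-only peaks, was 14-fold higher in mK4, and Ppp3ca, for the catalytic subunit of calcineurin, had 473, 469 and 459 CPM in mK4 and 93.6, 94.6 and 94.7 CPM in mK3 with 10 mK4-only peaks. Before the border, Maml3, for a coactivator of Notch, had 10 mK4-only and 3 mK3-only peaks and was 5.27-fold higher.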

How the data were processed

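The authors deposited 1 ATAC-seq peak list per line and a table of gene counts for 6 RNA libraries. The peak lists give, per the authors' peak caller, a fold enrichment (a ratio to background) and the −log10 p and −log10 q of each peak. The count table holds raw counts as deposited. The submitters' processing notes name the build mm10 and, without roles, MACS3, Bowtie2, deepTools, SAMtools, bedtools, HTSeq 2.0.2 and STAR 2.7.10a. Per the labels' protocols the RNA libraries were strand-specific and depleted of ribosomal RNA.

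The members and gene lists were chosen with earlier results of these data known. Peaks on unplaced or unlocalised contigs (46 in mK4, 39 in mK3) were left out, which left 34710 and 22477. A step is the bin edge, with at least 3 bins on each side, where the pooled log2 ratios differ most. Gene starts and positions came from RefSeq tables of GRCm38.p6, which placed 16901 of 20405 tested genes (82.8%). Some placed genes, such as Dchs1, had no start there and were left out of the grouping by start peak. Counts were fitted with edgeR 4.0.16 (filterByExpr, TMM, robust quasi-likelihood test) in R 4.3.3, with Benjamini-Hochberg adjustment over all genes and calls at 0.05. CPM use TMM-scaled library sizes. DESeq2 1.42.0, other filters and scalings, a replicate block and leaving out each library were alternatives. The fits were tested on simulated data. Named genes were the 6 largest increases and 6 largest decreases per chromosome among called genes with libraries that do not overlap and a mean log2 CPM of at least 3, up to 3 genes per list and direction by adjusted p, and the 3 strongest peaks per class. Genes and windows beside the step, the border in RNA, and peak-rich genes were chosen after their values were seen. A gene at 0 in a line was set to 3 counts per library for a bound. Intervals and floors cover counting error only. A few genes are not reported here.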

Additional observations from a re-analysis of the deposited data

How the results depend on the processing

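With both lists cut to equal length, the ratio was 1.24 on chromosome 3 and 1.63 on chromosome 7, against 1 over all chromosomes by construction. Counting only peaks within 1 kb of a gene start gave 1.23 and 1.70, and only those farther away gave 2.34 and 3.51. These divisions by gene start were chosen after seeing the data. The step on chromosome 3 lay at 30 Mb with −log10 q of at least 5 and with start peaks only, and at 80 or 85 Mb under the other alternatives. On chromosome 7 it lay at 45 Mb in bins of 5 Mb and in shifted bins, at 30 Mb by bases covered and away from starts, and at 40 Mb at starts. Requiring an overlap of at least 50% of both peaks lowered the shared percentages of mK4 and mK3 peaks to 31.1 and 61.9 on chromosome 3 and to 28.4 and 71.5 on chromosome 7.

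Without TMM scaling the median log2 fold change of all genes was 0.13 in place of 0.02, and the medians were −0.042 before and 1.08 beyond the step on chromosome 3, and 0.81 before and 0.61 beyond 60 Mb on chromosome 7. With at least 1 CPM in all libraries the chromosome 7 medians were 0.56 and 0.46. Leaving out each library gave 354 to 389 higher and 110 to 114 lower genes on chromosome 3, 388 to 455 and 68 to 75 on chromosome 7, and medians of −0.19 to −0.11 before and 0.95 to 1.01 beyond the step on chromosome 3, and 0.70 to 0.78 before and 0.46 to 0.54 beyond 60 Mb on chromosome 7. The replicate block left 56 lower genes on chromosome 7 in place of 86, and 3281 higher and 3129 lower over all genes. Same-numbered libraries of the lines correlated at −0.027, 0.0092 and 0.0088 in their deviations, and the other pairs at −0.045 to 0.042. No pairing by number was thus seen, but such correlations cannot show that the libraries were unpaired. For each moved value the cause was not tested. With 1 ATAC-seq library per line, no peak count has a replicate error.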
